A study of Mus musculus with 16 samples.

Results

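Nfib-high tumors are the mouse small cell lung cancers in this set whose Nfib transcript reached at least 1000 CPM (counts per 1000000, a gene's estimated count scaled to that total per tumor). They were chosen by this measured level, and 3 of 16 tumors qualified. Nfib stood at 1694 CPM in tumor sgp107_6627T1, 1181 CPM in sgp107_6627T2 and 4008 CPM in sgp130_6697T1. In the other 13 tumors it lay between 185 and 468 CPM, with sgp130_6697T2 (468 CPM), sgp130_6638T4 (458 CPM) and sgp107_6630T2 (435 CPM) closest to the threshold. The level of Nfib is therefore a description, and no result below counts it.

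All 16 tumors came from mice of a mixed C57BL/6;129/Sv strain with the genotype Trp53-/-; Rb1-/-, and CRISPR had mutated p107 (gene Rbl1) or p130 (gene Rbl2) in 8 tumors each. The Nfib-high class holds both p107 tumors of the sgp107_6627 mouse and 1 of the p130 tumors of the sgp130_6697 mouse. The comparison class holds 6 p107 tumors from 3 mice and 7 p130 tumors from 3 mice, among them sgp130_6697T2, the other tumor of the sgp130_6697 mouse. The first number of a tumor's name was read as its mouse. The ages of the mice and the cells in which Trp53 and Rb1 were deleted are not stated in the labels. The series has no tumor with intact Trp53, Rb1 or both p107 and p130 among the samples analysed. The 3 Nfib-high tumors came from 2 mice, so p-values, which take tumors as independent, measure the spread between tumors rather than between animals.

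Nuclear factor I proteins (NFIA, NFIB, NFIC and NFIX) are transcription factors that bind the palindromic motif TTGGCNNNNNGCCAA, or one of its arms, as dimers. NFIB takes part in lung maturation and in the development of neurons and glia. In small cell lung cancer, a neuroendocrine carcinoma, the Nfib gene is known to be amplified in part of mouse and human tumors, and high NFIB has been tied to metastasis.

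The libraries held 12700334 to 34620979 estimated counts, with 16477381 to 18985654 in the Nfib-high tumors. The rRNA precursor Rn45s made up 0.547% to 7.75% of the counts. Y-linked transcripts were present in 10 tumors, among them all 3 Nfib-high tumors and 7 of the others. They were present in all 8 p107 tumors and in both tumors of the sgp130_6697 mouse. In the tumors of the sgp130_6637 and sgp130_6638 mice, the Y-linked gene Kdm5d was at or under 0.0555 CPM. Y-linked transcripts and the mutated gene thus coincided in large part. Rbl2 lay at 96.3, 127 and 35.9 CPM in tumors sgp107_6627T1, sgp107_6627T2 and sgp130_6697T1 (the order used for every triple of values from here on) and at 15.3 to 101 CPM (median 54.7 CPM) in the others. Rbl1 lay at 78.1, 246 and 73.4 CPM against 63.2 to 196 CPM (median 88 CPM). Neither passed the test between the classes (edgeR adjusted p = 0.295 and 0.519), nor did Rb1 (0.996) or Trp53 (0.772), and counts summed over a gene cannot tell an edited transcript from an intact one.

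The neuroendocrine label was checked against defining markers. Calca, which encodes calcitonin gene-related peptide, lay at 114, 3144 and 2948 CPM against 1249 to 7984 CPM (median 4264 CPM) in the other tumors. Syp, the synaptic vesicle protein synaptophysin, lay at 491, 242 and 153 CPM against 128 to 224 CPM (median 188 CPM), and Insm1 at 540.3, 410.5 and 535 CPM against 243 to 588 CPM (median 367 CPM). Tumor sgp107_6627T1 thus had the lowest Calca of all tumors while its Syp was the highest. It also stood apart along component 1 of a principal component analysis (log2(CPM + 1)), which held 29.9% of the variance, at -116. Tumors sgp107_6627T2 (-45.8) and sgp130_6697T1 (-46.6) followed, then sgp130_6637T1 (-27.1), and sgp130_6697T2 lay at 12.4. Because sgp107_6627T1 stood apart, results are also given without it.

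**Figure D1:**
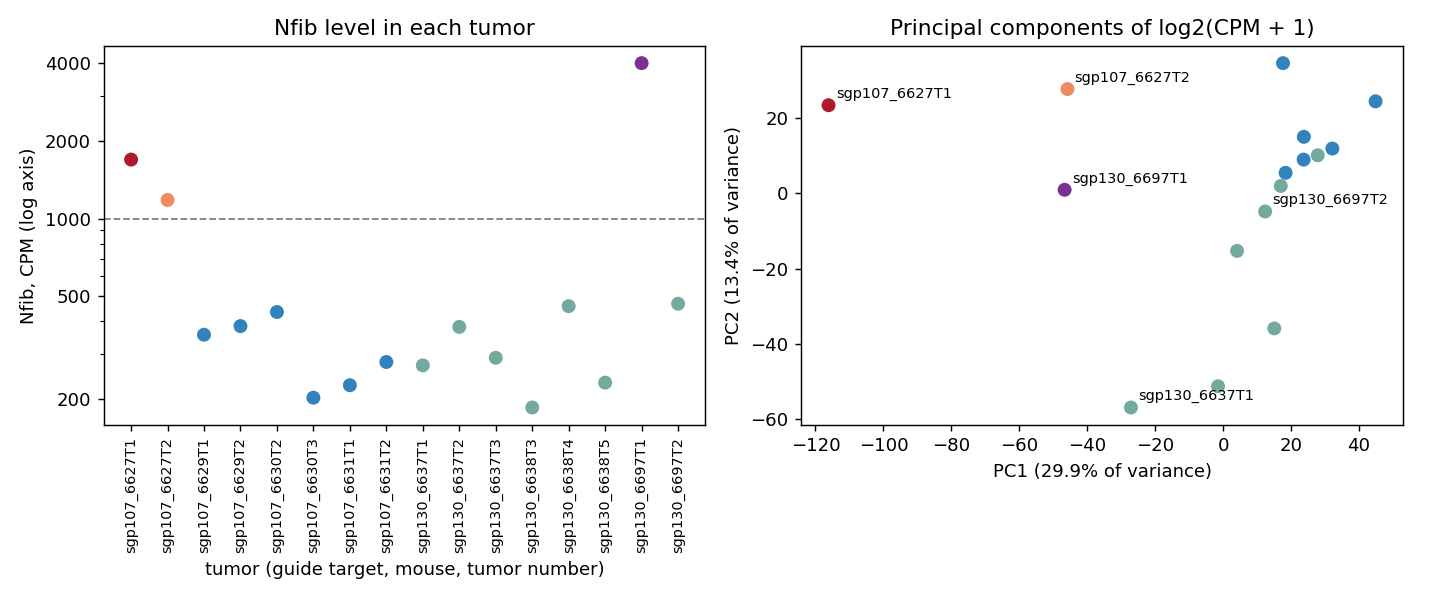
Left, Nfib CPM in each tumor on a log axis, with the threshold of 1000 CPM dashed; right, the first and second principal components of log2(CPM + 1). Red, orange and purple points are the Nfib-high tumors sgp107_6627T1, sgp107_6627T2 and sgp130_6697T1, and blue and green points the other p107 and p130 tumors. All 3 Nfib-high tumors lie to the left, at -116, -45.8 and -46.6 on the first component.

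The main comparison asked which genes differed between Nfib-high and other tumors with the mutated gene as a covariate. Of 15804 genes tested, edgeR's quasi-likelihood test called 1296 (8.2%) higher and 1210 (7.66%) lower in Nfib-high tumors at a Benjamini-Hochberg adjusted p under 0.05. At least 2-fold differences made up 813 and 866 of these. All 3 Nfib-high tumors lay above all 13 others in 423 genes (2.68%) and below all 13 in 682 genes (4.32%), and 381 and 603 of these were also called. The median log2 fold change of all tested genes was -0.01. Without sgp107_6627T1, 410 genes were higher and 389 lower, and without the sgp107_6627 mouse, which leaves sgp130_6697T1 alone in its class, 160 and 43. With each mouse as a fixed block the contrast rests on sgp130_6697T1 against sgp130_6697T2, and 1 gene passed, Igf2as, named after its values were seen (1022 genes had an unadjusted p under 0.05).

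The 15 leading genes with higher levels in Nfib-high tumors had folds of 2.34 to 75.8, and in 14 of them the classes did not overlap. Several are genes of neurons or of RNA processing. Shf, an SH2-domain adaptor, lay at 24.7, 22.3 and 31.5 CPM in the Nfib-high tumors and at 3.29 to 6.95 CPM (median 4.41 CPM) in the others (log2 fold change 2.57 ± 0.22 SE, adjusted p = 3.11e-05). Nova1, a neuronal splicing regulator, lay at 322, 203 and 139 CPM against 29.9 to 65.8 CPM (median 45.6 CPM, log2 fold change 2.14 ± 0.23 SE, adjusted p = 0.000152). Both were separated in every tumor, and Shf was nearly level across the 3 Nfib-high tumors whereas Nova1 was highest in sgp107_6627T1. Dlgap3, a scaffold of the postsynaptic density, lay at 158, 129.9 and 113 CPM against 19.4 to 51.1 CPM (median 32.1 CPM, log2 fold change 1.96 ± 0.23 SE, adjusted p = 0.000265). Ncdn, the neuronal protein neurochondrin, lay at 119, 76.5 and 161 CPM against 28.1 to 73 CPM (median 47.6 CPM, log2 fold change 1.42 ± 0.17 SE, adjusted p = 0.000299). For Ncdn, sgp107_6627T2 exceeded the highest other tumor, sgp130_6697T2, by little. Csdc2, a cold-shock-domain RNA-binding protein, lay at 102, 35.5 and 35.6 CPM against 2.16 to 10.1 CPM (median 3.46 CPM, log2 fold change 3.55 ± 0.38 SE, adjusted p = 0.000152).

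Other leading genes with higher levels encode transporters, enzymes and receptors. Slc13a5, a sodium-coupled citrate transporter, was at 1.64, 1.7 and 16.1 CPM and at most 0.536 CPM elsewhere (log2 fold change 6.24 ± 0.59 SE, adjusted p = 8.7e-05). Dio2, the deiodinase that activates thyroid hormone, was at 1.47, 3.7 and 44.2 CPM against 0.0783 to 1.73 CPM (median 0.373 CPM, log2 fold change 4.49 ± 0.56 SE, adjusted p = 0.000406). Both were highest in sgp130_6697T1, and for Dio2 tumor sgp107_6627T1 lay within the range of the others. Casq1, a calcium store protein best known from skeletal muscle, lay at 7.58, 8.31 and 6.5 CPM against 0.118 to 1.01 CPM (median 0.377 CPM, log2 fold change 4.34 ± 0.45 SE, adjusted p = 0.000134). Npr2, the receptor for C-type natriuretic peptide, lay at 24.4, 14.7 and 17.9 CPM against 2.48 to 6.64 CPM (median 4.05 CPM, log2 fold change 2.18 ± 0.27 SE, adjusted p = 0.000356). Casq1 was nearly level in the 3 Nfib-high tumors. The remaining ones were Tmod1, which caps actin filaments (2.48, adjusted p = 0.000328), Mgat4b, a glycosyltransferase of N-glycans (1.37, 0.000328), Gdpd5 (1.53, 0.000359), Gnb4, a G protein beta subunit (2.95, 0.000406), Asap1, a GTPase-activating protein for Arf (1.23, 0.000406), and Rian, an imprinted noncoding RNA (5.27, 0.000218), given as log2 fold change and edgeR adjusted p.

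In the 15 leading genes with lower levels, whose folds ran from 2.77 to 14.5, all 3 Nfib-high tumors lay below all 13 others. Cldn3, a tight junction claudin, lay at 13.5, 25.5 and 26.3 CPM against 75.6 to 165 CPM (median 99.8 CPM, log2 fold change -2.33 ± 0.30 SE, adjusted p = 0.000424). P2rx4, an ATP-gated ion channel, lay at 12.4, 10.6 and 12.4 CPM against 31.9 to 67.7 CPM (median 41.3 CPM, log2 fold change -1.81 ± 0.20 SE, adjusted p = 0.000218). The 3 Nfib-high tumors lay close to each other for P2rx4, and for Cldn3 sgp107_6627T1 was lowest. Sntb1, the adaptor beta-1-syntrophin, lay at 1.25, 0.486 and 0.474 CPM against 5.49 to 20.4 CPM (median 9.49 CPM, log2 fold change -3.85 ± 0.54 SE, adjusted p = 0.000643). Rab37, a secretory GTPase, lay at 0.113, 0.546 and 0.895 CPM against 2.09 to 13.1 CPM (median 7.2 CPM, log2 fold change -3.43 ± 0.53 SE, adjusted p = 0.00118). Isg20, an interferon-induced exonuclease, lay at 2.32, 2.73 and 3.74 CPM against 10.7 to 28 CPM (median 13.8 CPM, log2 fold change -2.32 ± 0.30 SE, adjusted p = 0.000424). The metabolic genes Pygl, which encodes the liver form of glycogen phosphorylase, and Gstm2, a glutathione transferase, had log2 fold changes of -2.15 and -2.75 (adjusted p = 0.000691 and 0.000461). Gstm2 belongs to a family of similar genes among which RSEM divides reads, so its level is less certain. Jakmip1 (-2.47), Sh3bgrl2 (-1.50), Anxa4 (-2.01), Hspa4l (-1.63), Ptpn6 (-1.75), Liph (-2.15) and Tmem176a (-1.47) were also in the group, with adjusted p between 0.000328 and 0.000964.

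**Figure D2:**
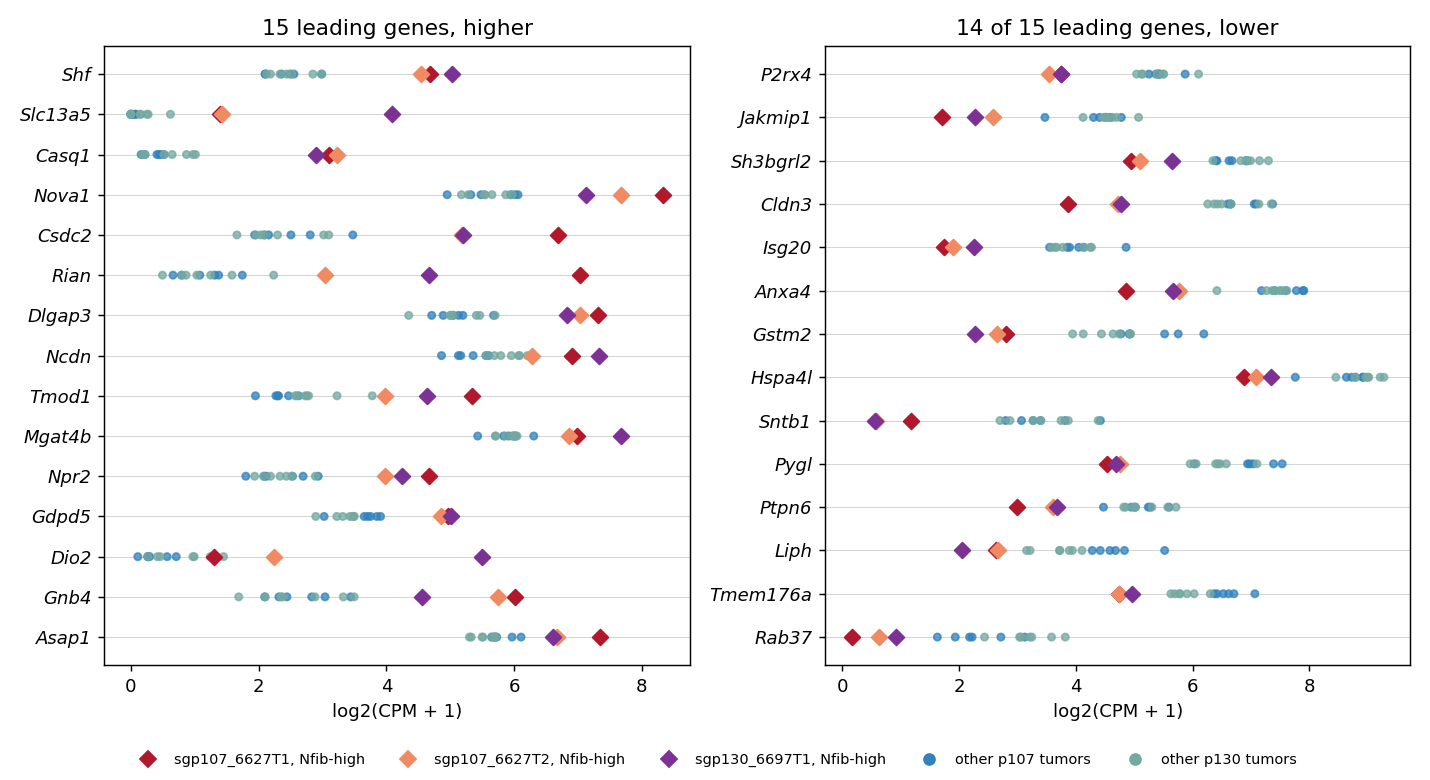
Level of the 15 leading higher (left) and 14 of the 15 leading lower (right) genes as log2(CPM + 1), 1 point per tumor, with diamonds for the 3 Nfib-high tumors and circles for the 13 others. The diamonds lie beyond all circles in every gene except Dio2, where sgp107_6627T1 (1.47 CPM) overlaps the others, which reach 1.73 CPM.

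All 30 leading genes were called again without sgp107_6627T1, and 19 of them without the sgp107_6627 mouse. Each of the 30 also differed at least 2-fold in the same direction between sgp130_6697T1 and sgp130_6697T2, the only pair of tumors from 1 mouse that fell into both classes. In that pair Shf was at 31.5 and 3.36 CPM, Slc13a5 at 16.1 and 0.536 CPM and Sntb1 at 0.474 and 8.63 CPM. These genes were selected on tumors that include this pair, so the pair is a description and not a separate test.

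Promoter windows of 250 bases before to 50 after the transcription start (RefSeq, GRCm38.p6) were searched for the inner core of the nuclear factor I palindrome, TGGCNNNNNGCCA, which reads the same on both strands and lies within the full motif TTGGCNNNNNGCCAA. It occurred in 0.925% of the windows of 27025 genes and in 1.08% of the 12380 tested genes that have a window. The shares were 1.10% among the 998 called higher and 1.52% among the 922 called lower. The full motif was found in 12 of the 27025. Of the 105 genes named by the rule, 79 have a window, and not all of these windows were searched gene by gene. Among those searched, 2 hold the core, Sh3bgrl2 and Isg20, both on the plus strand and both lower in Nfib-high tumors. Their windows are shown to place the core relative to the start, at -218 in Sh3bgrl2 (chr9:83548088-83548387) and -70 in Isg20 (chr7:78913985-78914284), with the palindrome's arms in capitals. A match of letters is not evidence of binding, and the absence of one says only that these letters are not in the window.
Sh3bgrl2: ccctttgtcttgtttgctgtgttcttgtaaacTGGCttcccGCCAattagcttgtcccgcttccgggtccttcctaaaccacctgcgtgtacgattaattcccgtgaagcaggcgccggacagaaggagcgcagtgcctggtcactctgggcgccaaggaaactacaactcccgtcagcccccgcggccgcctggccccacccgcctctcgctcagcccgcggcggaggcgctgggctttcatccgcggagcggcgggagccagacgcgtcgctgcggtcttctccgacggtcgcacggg
Isg20: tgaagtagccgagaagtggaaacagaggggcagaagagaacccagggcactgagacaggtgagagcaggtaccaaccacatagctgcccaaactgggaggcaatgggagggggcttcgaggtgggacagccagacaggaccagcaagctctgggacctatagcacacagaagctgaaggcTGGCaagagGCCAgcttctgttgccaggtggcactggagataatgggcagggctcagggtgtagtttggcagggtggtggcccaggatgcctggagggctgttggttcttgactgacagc

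Within the nuclear factor I family, Nfix rose with Nfib. It lay at 276, 132 and 245 CPM in the Nfib-high tumors and at 7.58 to 61.4 CPM (median 21.7 CPM) in the others (log2 fold change 3.11 ± 0.46 SE, adjusted p = 0.000887), with no overlap. Without sgp107_6627T1 the log2 fold change was 3.03, adjusted p = 0.00636. In the sgp130_6697 mouse, Nfix was at 245 CPM in sgp130_6697T1 and 18.5 CPM in sgp130_6697T2. Nfia lay at 47.9, 14.6 and 48.9 CPM against 9.44 to 60.3 CPM (median 32.5 CPM, adjusted p = 0.761) and Nfic at 134, 383 and 249 CPM against 98.5 to 329 CPM (median 229.9 CPM, adjusted p = 0.784). For both, the Nfib-high tumors lay inside or near the range of the others. The family's summed level without Nfib was 459, 529.6 and 542 CPM against 133 to 409 CPM.

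Genes of axon growth, guidance and neuronal adhesion were higher more often than lower. Of 42 tested, 18 rose and 0 fell, beside 8.2% and 7.66% of all genes, the shares against which the count of every list is read, and their median log2 fold change was 0.95 beside -0.01. Slit1, a secreted guidance cue read by Robo receptors, lay at 238, 147 and 113 CPM against 9.31 to 49 CPM (median 18.5 CPM, log2 fold change 2.79 ± 0.36 SE, adjusted p = 0.000452). Chl1, a neural cell adhesion protein, lay at 442, 371 and 363 CPM against 7.8 to 334 CPM (median 99.3 CPM, adjusted p = 0.0492, up to 0.43 without any 1 of 12 tumors, among them sgp107_6627T1, sgp107_6627T2 and sgp130_6697T1), and Dpysl5, which acts downstream of semaphorins, at 302, 189 and 161 CPM against 89.8 to 153 CPM (median 129 CPM, adjusted p = 0.00365). In these 3 genes the classes did not overlap. Tubb3, the neuronal beta-tubulin, lay at 200.1, 158 and 231 CPM, with other tumors at 5.89 to 206 CPM (median 26.3 CPM, adjusted p = 0.00633). Among the other tumors sgp130_6637T1 was at 206 CPM and the rest at or under 57.8 CPM.

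Many members of this list were highest by far in sgp107_6627T1. Stmn2, a microtubule regulator of growing axons, lay at 224, 5.84 and 0.844 CPM against 1.11 to 5.2 CPM (median 2.33 CPM). Dpysl3 lay at 216, 4.98 and 25.6 CPM against 1.48 to 19.9 CPM (median 3.88 CPM), Gap43, the growth-cone protein, at 108, 6.68 and 27 CPM against 0.526 to 18.2 CPM (median 1.65 CPM), and the ephrin receptor Ephb1 at 70.9, 0.85 and 1.11 CPM against 0.107 to 3.83 CPM (median 0.635 CPM). In Dpysl3 and Gap43, tumor sgp130_6697T1 too lay above the others, and sgp107_6627T2 did not. Without sgp107_6627T1, 5 members were higher and 1 lower, with a median of 0.57. Members called with and without it were Slit1 (log2 fold change 2.54, adjusted p = 0.00317 without sgp107_6627T1), Tubb3 (2.60, adjusted p = 0.0362), Dpysl5 (0.59, adjusted p = 0.0445), Sema3c (2.04, adjusted p = 0.0122) and the ephrin receptor Epha5 (4.15, adjusted p = 0.0136). The calls of Sema3c and Epha5 were lost with other tumors left out (adjusted p = 0.253 for Sema3c without sgp107_6627T2, and up to 0.116 for Epha5 without sgp107_6627T2 or sgp130_6697T1). Without both tumors of the sgp107_6627 mouse, 2 of the 42 members were higher and 0 lower.

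Epithelial adhesion genes and keratins were lower. Of 26 tested, 16 fell and 0 rose, beside 7.66% and 8.2% of all genes, 25 had a negative log2 fold change, and the median was -1.85. In 13 members all 3 Nfib-high tumors lay below all 13 others, beside 4.32% of all tested genes. Cdh1, which encodes E-cadherin, lay at 25.6, 402 and 298 CPM against 729 to 1387 CPM (median 847 CPM, log2 fold change -1.94 ± 0.53 SE, adjusted p = 0.021, and 0.0547 without sgp130_6697T1). Epcam lay at 27.8, 332 and 306 CPM against 497 to 1150.4 CPM (median 874 CPM, log2 fold change -1.89 ± 0.50 SE, adjusted p = 0.0194). Krt18, a keratin of simple epithelia, lay at 12.2, 136 and 206 CPM against 397 to 821 CPM (median 571 CPM, log2 fold change -2.33 ± 0.53 SE, adjusted p = 0.00869). In each, sgp107_6627T1 was more than 10-fold below sgp107_6627T2 and sgp130_6697T1, which were themselves below every other tumor. Cldn7 lay at 2.27, 28.3 and 25.3 CPM against 65.3 to 175 CPM (median 109 CPM), Esrp1, an epithelial splicing regulator, at 3.51, 92.7 and 92.1 CPM against 175 to 399 CPM (median 276 CPM), and the protease inhibitor Spint2 at 44.7, 108 and 110.2 CPM against 154 to 344 CPM (median 273 CPM).

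Without sgp107_6627T1, 12 of the 26 epithelial genes fell and 0 rose, with a median of -1.32. Without both tumors of the sgp107_6627 mouse, 2 of the 26 fell, and among p130 tumors 0 did, with medians of -1.32 and -1.31. Without sgp107_6627T1 alone, Cdh1 had a log2 fold change of -1.43, adjusted p = 0.0209, Krt18 of -1.77, adjusted p = 0.00305 and Pkp3, a desmosomal plakophilin, of -1.61, adjusted p = 0.003. The summed level of the list was 416, 2249.8 and 2487 CPM against 4514 to 8163 CPM. Jup, Grhl2, Cdh3, Itgb4 and Lamb3 did not pass, and Pkp1 had a log2 fold change of 0.06 (adjusted p = 0.968).

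**Figure D3:**
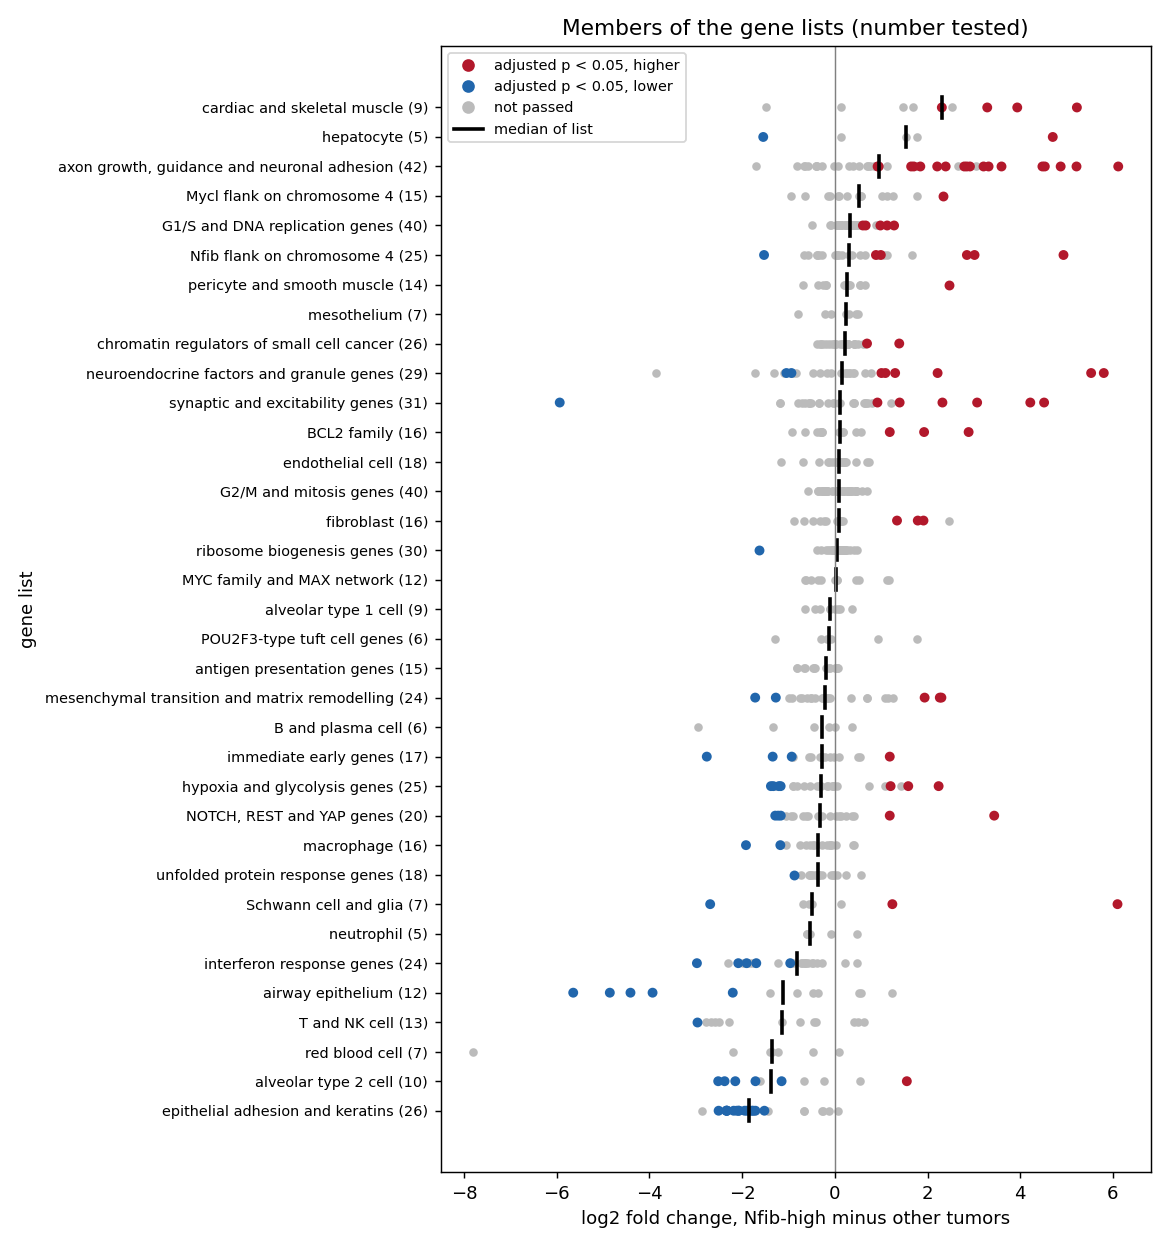
Log2 fold change (Nfib-high minus other tumors) of each tested member of the gene lists with at least 5 members tested, 1 row per list with the number tested in brackets, red and blue for members called higher and lower, grey for the rest, and a black bar at the list's median. The medians run from -1.85 in epithelial adhesion genes to 2.31 in muscle genes, and axon growth genes hold 18 red points and no blue one. The muscle median is -0.38 without the sgp107_6627 mouse.

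Of 24 genes of mesenchymal transition and matrix remodelling, 3 were higher and 2 lower, with a median of -0.22. Among all genes 8.2% were called higher and 7.66% lower, so these counts lay near the background. Zeb1, a repressor of E-cadherin, rose, at 166, 173 and 113 CPM against 19.5 to 85.3 CPM (median 35.9 CPM, log2 fold change 1.94 ± 0.32 SE, adjusted p = 0.00152). Zeb2 lay at 345, 33.2 and 12.2 CPM against 11.4 to 48.5 CPM (median 19.3 CPM), and Tgfb2 at 53.7, 5.12 and 38.9 CPM against 2.82 to 26 CPM (median 6.29 CPM). The adjusted p of Zeb2 was 0.0288, up to 0.978 without any 1 of 4 tumors, among them sgp107_6627T1. That of Tgfb2 was 0.0114, up to 0.206 without sgp107_6627T1 or sgp130_6697T1. Without sgp107_6627T1, Zeb1 alone passed among the mesenchymal genes. Of 20 genes of NOTCH, REST and YAP signalling, 2 rose and 3 fell, beside 8.2% and 7.66% of all genes. Without sgp107_6627T1, 2 of them rose and 0 fell. Yap1, the transcriptional coactivator of the Hippo pathway, lay at 7.88, 8.38 and 4 CPM against 7.07 to 31.8 CPM (median 12.6 CPM, adjusted p = 0.0146, up to 0.0762 without sgp107_6627T1 or sgp130_6697T1), its relative Wwtr1 at 20.8, 20.1 and 10.02 CPM against 18.3 to 84.5 CPM (median 27.4 CPM, adjusted p = 0.0308, up to 0.115 without sgp107_6627T1, sgp107_6627T2 or sgp130_6697T1), and the NOTCH target Hey1 at 42.1, 57.1 and 162 CPM against 21 to 69 CPM (median 36.6 CPM, adjusted p = 0.0245, and 0.68 without sgp130_6697T1).

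Among 29 neuroendocrine factors and granule genes, 6 rose and 2 fell, with a median of 0.15. Chga, which encodes the granule protein chromogranin A, lay at 560.0, 644 and 1655 CPM against 280.3 to 697 CPM (median 424 CPM, log2 fold change 1.09 ± 0.29 SE, adjusted p = 0.0195, and 0.353 without sgp130_6697T1), highest in sgp130_6697T1. Ncam1 lay at 468, 327 and 222 CPM against 111 to 225 CPM (median 159 CPM, log2 fold change 1.01 ± 0.21 SE, adjusted p = 0.00559, and 0.0654 without sgp107_6627T1), and Pou3f2, a neural POU factor, at 59.1, 1.59 and 2.53 CPM against 0 to 1.16 CPM (median 0.246 CPM, log2 fold change 5.80 ± 0.92 SE, adjusted p = 0.0013). Neurod4, a proneural factor, lay at 0.0566, 40.2 and 37.4 CPM against 0 to 28.1 CPM (median 0.375 CPM, adjusted p = 0.0205, and 0.486 without sgp107_6627T2), high in sgp107_6627T2 and sgp130_6697T1 and near 0 in sgp107_6627T1. Grp, which encodes gastrin-releasing peptide, also rose (adjusted p = 0.0292, up to 0.274 without any 1 of 5 tumors, among them sgp107_6627T1), as did Sox11 (adjusted p = 0.0272, up to 0.145 without sgp107_6627T1 or sgp107_6627T2). Resp18 fell (adjusted p = 0.0309, up to 0.137 without sgp107_6627T1, sgp107_6627T2 or sgp130_6697T1), as did Celf3 (adjusted p = 0.0487, up to 0.261 without any 1 of 13 tumors, among them sgp107_6627T1 and sgp107_6627T2). Without sgp107_6627T1, 3 members were higher and 0 lower. Calca (adjusted p = 0.292), Insm1 (0.255) and Syp (0.0585) did not pass. Neurod1 was at or under 0.0607 CPM in the Nfib-high tumors. In the others it had a median of 0.0518 CPM and reached 9.54 CPM, and it did not pass (adjusted p = 0.432).

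Of 31 synaptic and excitability genes, 6 rose and 1 fell. Gria2, a glutamate receptor subunit, lay at 100.1, 48.1 and 47.8 CPM against 0.539 to 33 CPM (median 9.04 CPM, adjusted p = 0.0164, up to 0.1 without sgp107_6627T1 or sgp130_6697T1). Every Nfib-high tumor was above every other tumor. Grik2, another glutamate receptor subunit, lay at 0.623, 2.49 and 12.9 CPM against 0 to 1.18 CPM (median 0.146 CPM, log2 fold change 4.51 ± 0.77 SE, adjusted p = 0.00187, and 0.0517 without sgp130_6697T1). Syt4, a synaptotagmin, was lower, at 0.113, 0.243 and 1.21 CPM against 0.15 to 74.4 CPM (median 44.4 CPM, adjusted p = 0.0432, up to 0.17 without any 1 of 10 tumors, among them sgp107_6627T1, sgp107_6627T2 and sgp130_6697T1). Without sgp107_6627T1 the calls were 2 higher, among them Grik2, and 1 lower, Stx1a (log2 fold change -1.91, adjusted p = 0.0399), named after its values were seen.

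Genes of the G1/S transition and DNA replication, which RB-family proteins and E2F factors control, were also compared. Of 40 tested, 5 passed as higher and 0 as lower, a count near the background of 8.2% of all genes called higher, 37 had a positive log2 fold change, and the median was 0.32. Cdt1, a replication licensing factor, lay at 121, 122 and 103 CPM against 28.5 to 87.4 CPM (median 64.6 CPM, log2 fold change 1.13 ± 0.26 SE, adjusted p = 0.00878, and 0.054 without sgp107_6627T1), Rrm2, a subunit of ribonucleotide reductase, at 475, 401 and 223 CPM against 92.4 to 263 CPM (median 146 CPM, log2 fold change 1.28 ± 0.28 SE, adjusted p = 0.00731, and 0.0654 without sgp107_6627T1), and E2f1 at 242, 95.4 and 68.2 CPM against 55.5 to 83.1 CPM (median 68.3 CPM, log2 fold change 0.98 ± 0.25 SE, adjusted p = 0.0148, and 0.288 without sgp107_6627T1). Without sgp107_6627T1 no member passed, with the median at 0.33, and sgp107_6627T2 had the highest summed level (6634, 8944 and 5991 CPM against 4802 to 6505 CPM). No member of the G2/M list passed in either direction of 40 (median 0.08). Ezh2, the histone methyltransferase of the Polycomb complex, lay at 283, 274 and 160.1 CPM against 106.7 to 173 CPM (median 147 CPM, log2 fold change 0.69 ± 0.17 SE, adjusted p = 0.0121, and 0.0911 without sgp107_6627T1).

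The MYC genes did not pass. Mycl1 lay at 60.8, 512 and 562 CPM against 60.8 to 777 CPM (median 141 CPM, adjusted p = 0.25), Mycn at 26.4, 17.6 and 15 CPM against 0.787 to 29.6 CPM (median 7.17 CPM, 0.111) and Myc at 6.34, 7.08 and 6.74 CPM against 3.77 to 43 CPM (median 10.1 CPM, 0.471). Mycl1 was high in sgp107_6627T2 and sgp130_6697T1, and in sgp107_6627T1 as low as in the lowest other tumor, sgp107_6629T1. In the BCL2 family 3 of 16 rose and 0 fell, beside 8.2% and 7.66% of all genes, and without sgp107_6627T1 Bid alone rose. Bid, a proapoptotic BH3 protein, lay at 20.05, 24.8 and 29.5 CPM against 3.44 to 17.3 CPM (median 5.69 CPM, log2 fold change 1.93 ± 0.35 SE, adjusted p = 0.00264), with no overlap. Bok and Hrk, also proapoptotic, also rose. The adjusted p of Bok was 0.0236, and 0.21 without sgp107_6627T1, and that of Hrk 0.0331, up to 0.509 without any 1 of 5 tumors, among them sgp107_6627T1 and sgp130_6697T1. Of 25 hypoxia and glycolysis genes, 3 rose, among them Aldoc, the brain form of aldolase (log2 fold change 1.58 ± 0.35 SE, adjusted p = 0.00747, up to 0.179 without sgp107_6627T1 or sgp130_6697T1), and Ndrg1 (log2 fold change 1.2 ± 0.29 SE, adjusted p = 0.0126, up to 0.139 without sgp107_6627T2 or sgp130_6697T1), and 4 fell, among them Pfkl (log2 fold change -1.33 ± 0.36 SE, adjusted p = 0.0213, up to 0.134 without sgp107_6627T1 or sgp107_6627T2). Beside these counts, 8.2% of all genes rose and 7.66% fell. Without sgp107_6627T1, 1 of the hypoxia and glycolysis genes was higher and 0 lower. Dusp1, an immediate early phosphatase, lay at 79.3, 97.4 and 105 CPM against 32.4 to 55.1 CPM (median 41 CPM, log2 fold change 1.19 ± 0.16 SE, adjusted p = 0.000585), whereas the immediate early factors Fosl2 (adjusted p = 0.0137, and 0.0987 without sgp107_6627T1) and Egr3 (adjusted p = 0.0148, up to 0.0579 without sgp107_6627T1, sgp107_6627T2 or sgp130_6697T1) fell.

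Interferon response genes were lower where they passed the test. Of 24 tested, 5 fell and 0 rose, 22 had a negative log2 fold change, and the median was -0.82. Ddx58, which encodes the RNA sensor RIG-I, lay at 6.15, 9.75 and 8.34 CPM against 11 to 70.6 CPM (median 27.6 CPM, log2 fold change -1.90 ± 0.37 SE, adjusted p = 0.00398). Oas2, an antiviral gene, lay at 0.396, 0.85 and 0.948 CPM against 1.61 to 13.4 CPM (median 3.84 CPM, log2 fold change -2.97 ± 0.77 SE, adjusted p = 0.0171, up to 0.102 without sgp107_6627T1 or sgp107_6627T2). Without sgp107_6627T1 Ddx58 alone passed, and without sgp107_6627T2 1 member did. The summed levels of the list were 378, 466 and 334 CPM against 385 to 1694 CPM. Of 15 antigen presentation genes none passed, with a median of -0.20.

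Markers of normal lung epithelium were lower as well. In tissue samples, fewer cells of a type and less RNA per cell cannot be told apart. Of 12 airway genes tested, 5 fell and 0 rose, with a median log2 fold change of -1.11. The median was -1.38 without the sgp107_6627 mouse, in a fit that rests on sgp130_6697T1 alone and gives an effect size only. Scgb1a1, the secretoglobin of club cells, lay at 75.9, 103 and 52.5 CPM against 135 to 7268 CPM (median 1737 CPM, log2 fold change -4.85 ± 0.77 SE, adjusted p = 0.00134), below all other tumors. Cyp2f2, a club cell cytochrome, lay at 14.1, 6.31 and 4.06 CPM against 7.62 to 339 CPM (median 172 CPM, log2 fold change -4.41 ± 0.73 SE, adjusted p = 0.00159). For Cyp2f2, sgp107_6627T1 lay above a single other tumor, sgp130_6637T1 (7.62 CPM). Among the other tumors, sgp130_6637T1 also had the lowest Scgb1a1 (135 CPM) and the lowest level of the surfactant gene Sftpd (25.4 CPM). Of 10 alveolar type 2 genes, 5 fell and 1, Etv5, rose (adjusted p = 0.0114, up to 0.185 without sgp107_6627T1 or sgp130_6697T1). Sftpd, a surfactant protein, lay at 22.3, 22.2 and 10.7 CPM against 25.4 to 221 CPM (median 72.1 CPM, log2 fold change -2.38 ± 0.46 SE, adjusted p = 0.00363), and Sftpc, the defining surfactant gene, at 83.7, 79.9 and 31.7 CPM against 56.5 to 227 CPM (median 127 CPM, adjusted p = 0.0463, up to 0.224 without any 1 of 11 tumors, among them sgp107_6627T1, sgp107_6627T2 and sgp130_6697T1). Without sgp107_6627T1, 2 alveolar type 2 genes fell and 0 rose. None of 9 alveolar type 1 genes passed. The summed airway level was 291, 273 and 188 CPM against 408 to 8831 CPM, and the summed alveolar type 2 level 447, 345 and 296 CPM against 370.1 to 1148 CPM. These markers and the epithelial adhesion genes above were both lower in the class, but their order among the Nfib-high tumors differed. The summed epithelial adhesion level was lowest in sgp107_6627T1 (416, 2249.8 and 2487 CPM). The airway and alveolar type 2 sums were highest in that tumor among the Nfib-high tumors. The part of these markers in the epithelial adhesion result was not tested.

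Markers of stroma, blood and other organs moved less uniformly. Of 16 fibroblast genes, 3 rose. Fbn1, a matrix fibrillin, lay at 46.6, 69.6 and 57.9 CPM against 10.8 to 37.6 CPM (median 22.6 CPM, log2 fold change 1.34 ± 0.29 SE, adjusted p = 0.00645), and Pdgfra at 130.1, 82.7 and 22.2 CPM against 9.03 to 29.6 CPM (median 18.4 CPM, log2 fold change 1.91 ± 0.42 SE, adjusted p = 0.00747, and 0.0775 without sgp107_6627T1). The summed fibroblast level was 439.6, 835 and 293 CPM against 226 to 671 CPM. Without sgp107_6627T1, 1 of the fibroblast genes passed. Of 16 macrophage genes 2 fell, Cd14 (adjusted p = 0.00748, and 0.0635 without sgp107_6627T1) and Lyz2 (adjusted p = 0.0342, up to 0.178 without any 1 of 5 tumors, among them sgp107_6627T1 and sgp130_6697T1). Of 13 T and NK cell genes 1 fell, Cd2 (adjusted p = 0.0328, up to 0.111 without sgp107_6627T1, sgp107_6627T2 or sgp130_6697T1). None of the 18 endothelial, 5 neutrophil, 6 B and plasma cell, 7 mesothelium or 7 red blood cell genes tested passed. Of 9 muscle genes 4 rose, and they were high in different tumors. The median log2 fold change of the muscle list was 2.31, and -0.38 without the sgp107_6627 mouse. Actc1 lay at 9.45, 14.4 and 0.543 CPM against 0 to 1.39 CPM (median 0.199 CPM, adjusted p = 0.0054) and Tnnt2 at 0.17, 13.4 and 0.263 CPM against 0.0391 to 1.34 CPM (median 0.15 CPM, adjusted p = 0.027, up to 0.873 without any 1 of 4 tumors, among them sgp107_6627T2). The others were Acta1 (adjusted p = 0.0372, up to 0.336 without any 1 of 5 tumors, among them sgp107_6627T1) and Mb (adjusted p = 0.038, up to 0.758 without any 1 of 6 tumors, among them sgp107_6627T2). Gfap, the astrocyte filament, was high in sgp107_6627T1 only (78.6, 0.243 and 0.105 CPM against 0 to 1.35 CPM, median 0.428 CPM) with an adjusted p of 0.0102, and 0.547 without sgp107_6627T1, and Ahsg, a liver-secreted fetuin, in sgp130_6697T1 only (0.113, 0.668 and 51.1 CPM against 0 to 2.54 CPM, median 0.155 CPM) with an adjusted p of 0.0296, up to 0.831 without any 1 of 4 tumors, among them sgp130_6697T1. Alb, the defining hepatocyte gene, was at 0 in all 3, which allows up to 0.17, 0.182 and 0.158 CPM (3 counts per library, counting error only). The summed level of muscle genes was 24.9, 96.7 and 8.03 CPM against 9.03 to 84.1 CPM, and that of macrophage genes 399.7, 664 and 267 CPM against 403 to 965 CPM. The part of these cell types in the other results was not tested.

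The genes that flank Nfib on chromosome 4 were examined in the order of the reference annotation, 15 tested genes on each side. Of these 30, 4 were called higher and 3 lower, beside 8.2% and 7.66% of all genes, with a median log2 fold change of 0.06. The 3 nearest on one side were Mpdz, a multi-PDZ scaffold of tight junctions, D4Bwg0951e and Ptprd, a receptor tyrosine phosphatase of neurons. On the other side they were the palmitoyltransferase gene Zdhhc21, Cer1, an antagonist of BMP and Nodal signals, and Frem1, a matrix protein. Mpdz lay at 64.7, 64.2 and 465 CPM against 4.36 to 49.8 CPM (median 25 CPM, log2 fold change 2.85 ± 0.50 SE, adjusted p = 0.00226, and 0.103 without sgp130_6697T1), above all others in all 3 tumors. Ptprd lay at 65.4, 8.1 and 40.6 CPM against 1.88 to 15.4 CPM (median 3.41 CPM, log2 fold change 3.01 ± 0.55 SE, adjusted p = 0.00292, and 0.0615 without sgp107_6627T1), with sgp107_6627T2 inside the range of the others.

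The tumors differed along this stretch. In sgp130_6697T1 an unbroken run of 11 genes around Nfib, from Kdm4c to Bnc2, lay above all 13 other tumors, where 9.35% of all tested genes did so in that tumor. Relative to the median of the other tumors, the ratios in sgp130_6697T1 were 3.02 for the histone demethylase gene Kdm4c, 11.9 for Ptprd, 2.06 for D4Bwg0951e and 18.6 for Mpdz. On the other side they were 4.88 for Zdhhc21, 1.84 for Cer1, 3.89 for Frem1, 2.4 for Ttc39b, 5.41 for Snapc3, 4.62 for Psip1 and 118 for Bnc2. The next genes outward, Frmd3 and Cntln, lay inside the range of the others. In a list of 25 tested genes of this region, 5 rose and 1 fell, and without sgp130_6697T1 1 rose and 1 fell.

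In sgp107_6627T1, 3 of the 30 flanking genes lay above all 13 (16.5% of all tested genes did), and in sgp107_6627T2 1 of 30 (11.4%). Psip1, a chromatin-bound coactivator, lay at 557, 705 and 2759 CPM against 431 to 1333 CPM (median 598 CPM), and Bnc2, a zinc finger gene, at 0.289, 0.243 and 47.1 CPM against 0.112 to 0.659 CPM (median 0.398 CPM). The highest Kdm4c, D4Bwg0951e, Zdhhc21, Cer1, Ttc39b, Snapc3 and Psip1 levels among the 13 others were those of sgp130_6697T2, the other tumor of that mouse. It was the highest of the 13 in 17 of the 30 flanking genes, 7 of the 11 in the run and 10 of the 19 outside it, beside 3.82% of all tested genes. There Psip1 was at 2.23 and Zdhhc21 at 2.01 times the median of the others, while Mpdz was at 0.683 and Bnc2 at 0.49 times. DNA copy number was not analysed here, and the part of the locus in these levels was not tested.

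**Figure D4:**
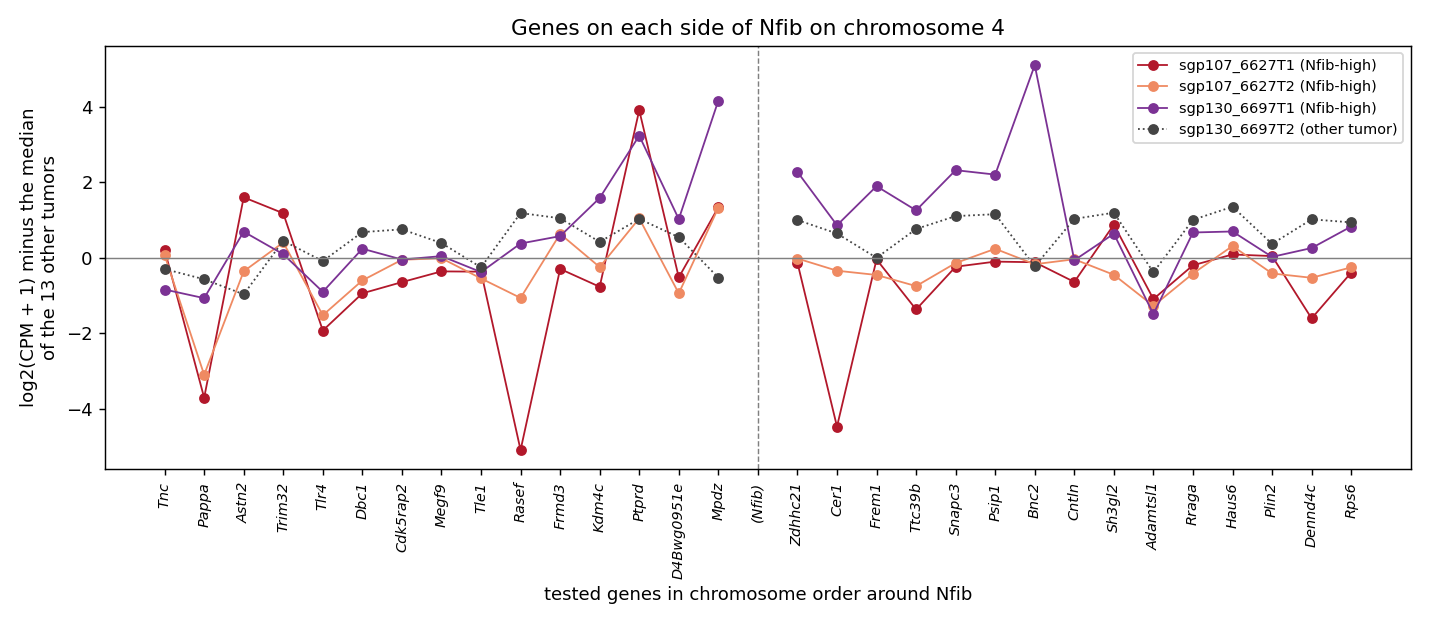
Log2(CPM + 1) minus the median of the 13 other tumors for 15 tested genes on each side of Nfib on chromosome 4, in chromosome order and with the position of Nfib dashed. Lines are the 3 Nfib-high tumors and, dotted, sgp130_6697T2; sgp130_6697T1 lies above 0 from Kdm4c to Bnc2, whereas sgp107_6627T1 and sgp107_6627T2 lie near or below 0 in this stretch except at Ptprd and Mpdz.

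The classes were compared within each genotype, in fits that share no tumor. Among the p130 tumors, sgp130_6697T1 had Y-linked transcripts, and of its comparison tumors only sgp130_6697T2 did. In that fit, a difference tied to Y-linked transcripts and one of the Nfib class largely cannot be told apart. Among p107 tumors (sgp107_6627T1 and sgp107_6627T2 against 6), 1129 of 15621 genes (7.23%) were higher and 1006 (6.44%) lower. Among p130 tumors (sgp130_6697T1 against 7), 101 of 16235 (0.622%) were higher and 17 (0.105%) lower, with the lone Nfib-high tumor assumed to vary like the others. Of the 1113 genes called higher among p107 tumors and tested among p130 tumors, 886 (79.6%) had a positive log2 fold change in sgp130_6697T1, 36 were called higher and 0 lower. Of the 1004 called lower, 908 (90.4%) had a negative one, 3 were called lower and 2 were called higher. Over all 15473 genes tested in both, 45.6% were positive and 54.4% negative. The median log2 fold changes in sgp130_6697T1 were 0.45 and -0.78 for these sets, against 1.45 and -1.70 among p107 tumors, where the sets were chosen.

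Against sgp130_6697T2 from the same mouse, sgp130_6697T1 was higher in 80.1% of the genes called higher among p107 tumors and lower in 91.2% of those called lower, beside 44.4% and 55.5% of all genes. This comparison shares sgp130_6697T1 with the one before. Whole transcriptomes of Nfib-high tumors from different mice correlated at 0.902 and 0.951 (Pearson's r over genes of log2(CPM + 1), which share library and gene effects), where the lower is the pair with sgp107_6627T1. Tumors sgp107_6627T1 and sgp107_6627T2, from 1 mouse, had an r of 0.920. Pairs of a Nfib-high and another tumor from different mice had a median r of 0.919, and pairs of other tumors from different mice 0.954. By Nfib-high tumor, the former ran from 0.828 to 0.878 for sgp107_6627T1, 0.905 to 0.946 for sgp107_6627T2 and 0.892 to 0.940 for sgp130_6697T1. The low pairs of sgp107_6627T1 thus lower that median. Tumors sgp130_6697T1 and sgp130_6697T2 had an r of 0.943.

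**Figure D5:**
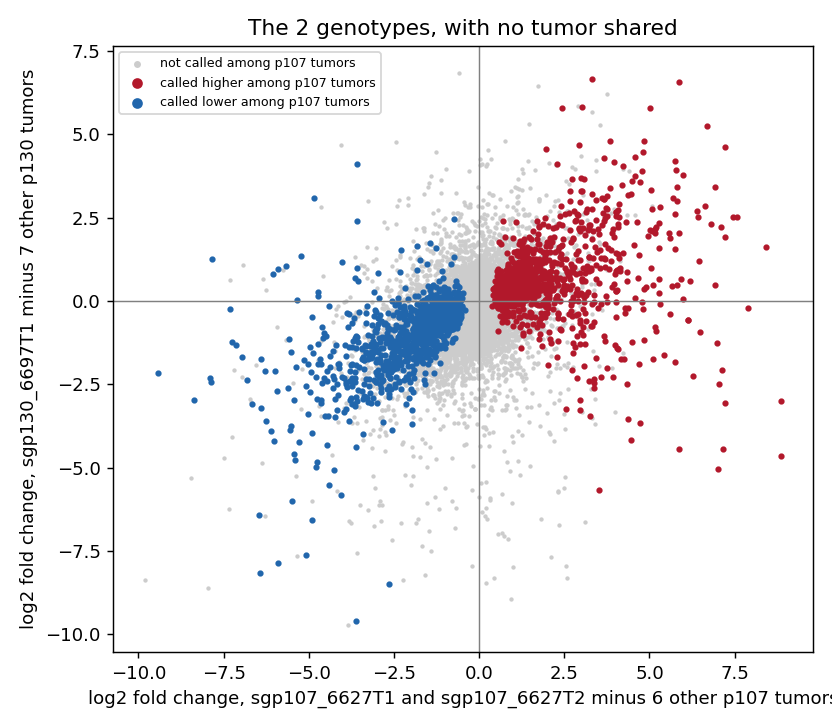
Log2 fold change between Nfib-high and other tumors among p107 tumors (horizontal) and among p130 tumors (vertical), 1 point per gene tested in both, with no tumor in common. Genes called among p107 tumors are red (higher) and blue (lower), and 79.6% of the red points lie above 0 and 90.4% of the blue points below 0, beside 45.6% and 54.4% of all genes.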

How the data were processed

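Total RNA from 16 frozen mouse tumors was isolated and made into mRNA libraries (KAPA mRNA HyperPrep), per the labels' protocols. Reads were processed with Bowtie 1.0.1 and RSEM 1.2.12 against mm9, per the submitters' processing notes. Of the annotation and the strand setting, the sources used here give nothing. The authors deposited expected counts (estimated counts from RSEM) for 23224 genes, and these were rounded to whole numbers. A second deposited table holds normalized signal values, whose scaling the sources used here do not describe, and served in 1 alternative.

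CPM are counts per 1000000 of a tumor's total. Tumors with an Nfib CPM of 1000 or more were compared with the rest in edgeR 4.0.16 (R 4.3.3; TMM, filterByExpr, robust quasi-likelihood test, mutated gene as covariate), with Benjamini-Hochberg adjusted p-values over all genes and a threshold of 0.05. The pipeline was tested on simulated data. Only the number in a title shows which tumors share an animal, and p-values measure the spread between tumors.

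The members and gene lists (38 lists, 702 entries, 7 with no symbol in the table) were chosen with earlier results of these data known. Named genes were the 15 of smallest p in each direction among called genes that differed by at least 1 on the log2 scale and had a mean of at least 5 CPM in the higher class, the other nuclear factor I genes, the 3 nearest tested genes on each side of Nfib, Mycl1, Myc and Mycn, the mutated and deleted genes, and up to 3 called members of each list, gene models passed over. Further list members, marker genes and flanking genes were named after their values were seen. Gene order and promoters come from RefSeq (GRCm38.p6), and no mm9 coordinates were used. Some genes are not reported here, though counts include them. Lists are described by counts and medians, without a set test.

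Alternatives were no genotype covariate, DESeq2 1.42.0, RLE and upper-quartile factors, no filter on low counts, the mouse as fixed block or as random block (limma 3.58.1 voom), counts summed per mouse and class, each tumor left out, each genotype alone, Y-linked transcripts (Kdm5d at 5 CPM or more) as covariate, log2 Nfib as covariate, the 3 tumors next below the threshold left out, Rn45s left out, and limma-trend on log2(signal + 1). Limits from 0 counts cover counting error only.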

Additional observations from a re-analysis of the deposited data

Results flagged for a closer look

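For some genes the difference between Nfib-high and other tumors was not alike in the 2 genotypes, by an interaction term of Nfib class and mutated gene in edgeR (added after the data were seen). Of 15804 genes tested, 17 passed at an adjusted p under 0.05 and 1296 at an unadjusted p under 0.05, and 3 of the 17 are unnamed gene models. The other 14 follow, each with the log2 effect in p130 tumors minus that in p107 tumors. The p130 effect rests on sgp130_6697T1 alone, so a property of that tumor and one of the genotype cannot be told apart. Of the p130 tumors it was compared with, only sgp130_6697T2 had Y-linked transcripts, as sgp130_6697T1 did.

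The interaction was 7.66 for Bnc2 (adjusted p = 0.00116) and 1.88 for Kdm4c (adjusted p = 0.023), both in the stretch around Nfib described above. It was 4.94 for Fgf1, a fibroblast growth factor, which lay at 10.8, 26.9 and 326 CPM in sgp107_6627T1, sgp107_6627T2 and sgp130_6697T1 (adjusted p = 0.00178). It was 7.67 for the epithelial transcription factor Spdef, 7.18 for Tfap2a, which encodes the factor AP-2 alpha, 2.02 for Nhsl1, 3.08 for the protocadherin Pcdh17, 2.74 for the ion channel Tmem38b and 2.24 for the kinase Sik1, with edgeR adjusted p between 0.0119 and 0.05.

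In 3 genes of epithelia and secretion sgp130_6697T1 lay above both Nfib-high p107 tumors, and for Exph5 also above all other tumors. Scnn1a, a sodium channel subunit, lay at 62.6, 83.6 and 256 CPM against 238 to 521 CPM in the others (interaction 2.35). Exph5, a Rab27 effector, lay at 7.65, 12 and 135 CPM against 18.9 to 70.2 CPM (3.83), and Sytl1, another Rab27 effector, at 0.227, 1.09 and 30.5 CPM against 9.6 to 60.2 CPM (5.36).

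In 2 genes the interaction was negative. Gjc1, a gap junction protein, lay at 53.5, 37.9 and 1.16 CPM against 1.61 to 10.1 CPM (interaction -5.90, adjusted p = 0.05). Igf2as lay at 51.3, 53.7 and 2.21 CPM against 29.5 to 63.9 CPM (interaction -4.37, adjusted p = 0.00116). It overlaps Igf2, and the strand setting of the counting is not given in the sources used here, so reads of both cannot be told apart. Igf2 itself was at 57.8 CPM in sgp130_6697T1 and 1053 CPM in sgp130_6697T2.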

How the results depend on the processing

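The 2506 genes called (1296 higher, 1210 lower) fell to 1319 (820 and 499) with log2 Nfib as a continuous covariate, to 1686 (775 and 911) with counts summed per mouse and class, to 118 (101 and 17) among p130 tumors and to 1 (0 and 1) with each mouse as a fixed block, and rose to 3583 (1736 and 1847) with DESeq2. Without the sgp107_6627 mouse, an alternative added after the data were seen, they fell to 203 (160 and 43). Leaving out 1 tumor at a time gave 799 to 3137 calls (410 to 1620 higher, 389 to 1517 lower), lowest without sgp107_6627T1 and highest without sgp130_6637T1. The share of higher calls was 51.7%, but 38.9% (949 higher, 1488 lower) with limma-trend on the normalized table, 62.2% with continuous Nfib, 85.6% among p130 tumors and 78.8% without the sgp107_6627 mouse. The other alternatives stayed within 1.5 times of the counts. All 30 leading genes kept their direction in every alternative and their call in all but the mouse block (0 called), continuous Nfib (29), p130 tumors (12) and without the sgp107_6627 mouse (19).

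Under those alternatives 1383 log2 fold changes of named genes kept their sign and side of the threshold, 343 lost their call, 10 gained one and 40 changed sign. With 1 tumor left out, 1544 kept both, 103 lost their call, 4 gained one and 21 changed sign. Changes of sign were as follows, as log2 fold changes. With the mouse block, Rbl1 -0.042, Rbl2 -0.13, Trp53 0.23, Cer1 0.31, Fbln1 -0.29 and Gfap -1.55. Among p107 tumors, Nfia -0.048, Rb1 0.20, D4Bwg0951e -0.55, Zdhhc21 -0.12, Frem1 -0.66 and Ahsg -0.58. Among p130 tumors, Rbl1 -0.17, Cer1 0.92, Ankrd1 -0.21, Fbln1 -0.56, Gfap -2.48 and Tnnt2 -0.25. Without the sgp107_6627 mouse, Rbl1 -0.17, Cer1 0.91, Ankrd1 -0.22, Fbln1 -0.57, Gfap -2.50 and Tnnt2 -0.26. Without the sgp130_6697 mouse (also added), Nfia -0.051, Rb1 0.19, D4Bwg0951e -0.55, Zdhhc21 -0.12, Frem1 -0.67, Bnc2 -0.56 and Ahsg -0.57. With Y-linked transcripts as covariate, D4Bwg0951e -0.26. Rb1 (-0.0040 in the report's fit) was 0.025 without the genotype covariate, 0.0047 with DESeq2, 0.0052 with RLE factors, 0.021 with voom, 0.0013 with continuous Nfib, 0.0091 without Rn45s, 0.028 with limma-trend and 0.057 without the 3 tumors next below the threshold. With 1 tumor left out, values ran from -0.57 to 5.56 for Ahsg, -0.56 to 5.81 for Bnc2, -1.47 to 0.35 for Cer1, -0.55 to 0.45 for D4Bwg0951e, -0.67 to 1.67 for Frem1, -1.19 to 7.04 for Gfap, -0.051 to 0.63 for Nfia, -0.28 to 0.44 for Nfic, -0.26 to 0.19 for Rb1, -0.29 to 0.63 for Rbl1, -0.32 to 4.82 for Tnnt2 and -0.12 to 1.45 for Zdhhc21. Where these follow 1 tumor, its values stand in the report, and the cause was not tested.

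Medians near 0 changed sign with the scaling for the MYC network, synaptic, tuft, endothelial, fibroblast and mesothelium lists. The class is 3 tumors from 2 mice, chosen by a measured level. In the voom fit, the correlation between tumors of a mouse, taken over genes after class and genotype were fitted, was 0.0563. Both tumors of the sgp107_6627 mouse are in the class, so what they share can enter the class term and escape this value. The mouse block leaves 1 pair to test, so differences between animals and between classes cannot be told apart. In a library, 3 counts equal 0.0867 to 0.236 CPM, and levels near that carry large counting error.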

Other observations

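Genes outside the naming rule are given here after their values were seen. Among genes of the imprinted Dlk1-Meg3 cluster, the noncoding Meg3 and Rian were higher in Nfib-high tumors. Meg3 lay at 135, 2.69 and 9.25 CPM in sgp107_6627T1, sgp107_6627T2 and sgp130_6697T1 against 0.0658 to 1.29 CPM in the others (log2 fold change 6.52 ± 0.83 SE, adjusted p = 0.000438), and Rian at 129.6, 7.24 and 24.5 CPM against 0.408 to 3.71 CPM. In both, every Nfib-high tumor lay above every other tumor. Dlk1, a protein-coding gene of the cluster, lay at 45.8, 1.49 and 1.03 CPM against 0.37 to 1.6 CPM (adjusted p = 0.00414, and 0.446 without sgp107_6627T1), high in sgp107_6627T1 alone. Rtl1, another, lay at 0.248, 0.606 and 0.759 CPM against 0.134 to 0.66 CPM and did not pass (log2 fold change 0.68, adjusted p = 0.358). The noncoding Mirg lay at 0.623, 0.121 and 0.158 CPM against 0 to 0.157 CPM, with sgp107_6627T2 inside the range of the others, and its counts were too low to be tested.

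Some other genes called among the most significant were also separated. Vcan, the matrix proteoglycan versican, rose (log2 fold change 3.72 ± 0.50 SE, adjusted p = 0.000538), as did Srgap3, a GTPase-activating protein of neurons (log2 fold change 3.31 ± 0.43 SE, adjusted p = 0.000443), and Sox8 (log2 fold change 4.23 ± 0.58 SE, adjusted p = 0.000577). The receptor tyrosine kinase Ret fell, at 81.8, 136 and 68.9 CPM against 174 to 506 CPM (log2 fold change -1.89 ± 0.29 SE, adjusted p = 0.00118). Hp, which encodes haptoglobin (log2 fold change -3.68 ± 0.59 SE, adjusted p = 0.00134), the uroplakin Upk3a (log2 fold change -4.77 ± 0.75 SE, adjusted p = 0.0013) and Lrrk2, a kinase (log2 fold change -2.20 ± 0.34 SE, adjusted p = 0.00119) fell too. In these 7 genes the classes did not overlap. Over all tested genes, 2.68% were separated as higher and 4.32% as lower. The classes overlapped in Ttyh1, which rose (log2 fold change 3.45, edgeR adjusted p = 0.000519), and in Foxq1, which fell (-2.92, 0.00112).

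The remaining lists held few calls. Of 26 chromatin regulators, 2 rose, Ezh2 and Smarca2, and of 30 ribosome biogenesis genes 1 fell, Utp20. Of 18 unfolded protein response genes 1 fell, Pdia6, and of 17 immediate early genes 1 rose and 3 fell. Of 14 pericyte and smooth muscle genes 1 rose, Cspg4 (adjusted p = 0.00732, and 0.306 without sgp107_6627T1). Of 7 Schwann cell and glial genes, 2 rose, Gfap and Pmp22, and 1 fell, and of 5 hepatocyte genes Ahsg rose and Trf fell (adjusted p = 0.0135, and 0.064 without sgp107_6627T2). None of 12 genes of the MYC network, 6 tuft cell genes or 5 sex-linked genes passed. Of 15 genes around Mycl1, 1 rose, Mfsd2a (adjusted p = 0.0484, up to 0.282 without any 1 of 13 tumors, among them sgp107_6627T2 and sgp130_6697T1). Without sgp107_6627T1, no chromatin, ribosome biogenesis, unfolded protein response, pericyte or glial gene passed.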
